A study of Mus musculus with 6 samples.

Results

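The promoter rows described here are those whose ChIP signal lay above the array's median promoter on every one of 6 arrays, 3 made with an antibody to Plakoglobin and 3 with an antibody to β-catenin. They number 1832 of 26200 promoter rows (6.99%). A row is a promoter sequence with its own identifier, and its value is the mean over its probes of the log2 ratio of ChIP to input DNA, minus the median of that array over all rows. A value of 0 is therefore the median promoter of the array and not equal ChIP and input. Because the rule used these ratios, the ratios of the members and the peaks called on the same arrays are given as a description and without a test.

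All arrays came from C57BL/6J mouse keratinocytes, the main cells of the epidermis, that were grown to confluence and then held for 4 days in high-calcium medium, which starts terminal differentiation. Proteins were crosslinked with 2 mM di-succinimidyl-glutarate, which links proteins to each other, and then with 1% formaldehyde, and the chromatin was sheared to 500 bp. Both antibodies came from BD Biosciences and were used at 5 µg per ml of lysate. The ChIP DNA carried Cy5 and the total input DNA of the same cells carried Cy3, and there were 3 arrays per antibody, numbered 1 to 3. No array made with a mock antibody, or with cells lacking Plakoglobin or β-catenin, was analysed here, and input is the only background. The arrays measured DNA and no RNA, so the cell type could not be checked against expressed markers, and nothing in the labels says that the numbered arrays came from separate cultures or animals.

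Plakoglobin and β-catenin are armadillo-repeat proteins that tie cadherins to the cytoskeleton at desmosomes and adherens junctions. When Wnt ligands bind Frizzled and Lrp receptors, β-catenin escapes phosphorylation by Gsk3 and degradation, enters the nucleus and acts with TCF/LEF factors, which bind DNA directly, and Plakoglobin can also bind these factors. Promoters of housekeeping genes, which nearly all cells use, are mostly rich in CpG dinucleotides and open in every cell, while those of many tissue-restricted genes, such as odorant receptors, are CpG-poor and mostly silent outside their own tissue.

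RefSeq promoter sequences (GRCm38.p6) of 8 members are shown to give an idea of the range of DNA among them. They are the steady member Efna5, the Wnt pathway genes Gsk3b and Wnt4, the F-box gene Fbxo2, Josd1 and Bmt2 with peaks on 4 and 3 arrays, and the odorant receptor genes Olfr739 and Olfr212. Each covers the 250 bases before the RefSeq start site, 5′ to 3′ along the gene, in lower case with every CpG in capitals. They were matched by gene, and whether the array probes lie within these windows was not checked, since the sources used here do not give the build of the array.
Efna5: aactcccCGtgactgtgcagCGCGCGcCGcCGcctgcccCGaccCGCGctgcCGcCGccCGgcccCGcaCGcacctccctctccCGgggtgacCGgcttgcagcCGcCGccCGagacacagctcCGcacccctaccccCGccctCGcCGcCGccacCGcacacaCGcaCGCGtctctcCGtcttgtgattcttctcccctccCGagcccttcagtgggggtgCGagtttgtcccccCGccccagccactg
Gsk3b: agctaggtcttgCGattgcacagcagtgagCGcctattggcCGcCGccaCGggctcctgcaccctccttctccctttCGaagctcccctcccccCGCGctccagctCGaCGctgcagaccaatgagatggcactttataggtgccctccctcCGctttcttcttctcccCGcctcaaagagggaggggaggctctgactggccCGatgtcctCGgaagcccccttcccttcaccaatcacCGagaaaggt
Wnt4: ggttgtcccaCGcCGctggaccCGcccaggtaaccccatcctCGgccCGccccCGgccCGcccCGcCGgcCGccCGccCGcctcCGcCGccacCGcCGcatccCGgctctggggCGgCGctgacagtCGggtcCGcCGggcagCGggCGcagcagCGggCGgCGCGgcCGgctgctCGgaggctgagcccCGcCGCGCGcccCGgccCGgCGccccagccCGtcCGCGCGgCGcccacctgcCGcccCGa
Fbxo2: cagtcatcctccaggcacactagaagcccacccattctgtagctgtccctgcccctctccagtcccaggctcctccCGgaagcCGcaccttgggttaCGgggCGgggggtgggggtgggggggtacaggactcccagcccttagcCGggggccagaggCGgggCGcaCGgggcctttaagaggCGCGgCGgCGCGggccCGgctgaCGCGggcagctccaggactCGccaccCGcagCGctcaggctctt
Josd1: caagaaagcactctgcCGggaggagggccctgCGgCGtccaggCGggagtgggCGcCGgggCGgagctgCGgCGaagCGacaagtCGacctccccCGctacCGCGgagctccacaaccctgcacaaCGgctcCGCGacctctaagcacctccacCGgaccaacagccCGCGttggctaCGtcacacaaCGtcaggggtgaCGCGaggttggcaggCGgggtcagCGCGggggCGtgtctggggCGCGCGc
Bmt2: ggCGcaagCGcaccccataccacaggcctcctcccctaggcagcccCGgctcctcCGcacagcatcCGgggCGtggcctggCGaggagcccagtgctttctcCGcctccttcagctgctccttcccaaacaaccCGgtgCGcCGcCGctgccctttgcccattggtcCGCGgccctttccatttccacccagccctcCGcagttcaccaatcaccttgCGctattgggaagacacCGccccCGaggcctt
Olfr739: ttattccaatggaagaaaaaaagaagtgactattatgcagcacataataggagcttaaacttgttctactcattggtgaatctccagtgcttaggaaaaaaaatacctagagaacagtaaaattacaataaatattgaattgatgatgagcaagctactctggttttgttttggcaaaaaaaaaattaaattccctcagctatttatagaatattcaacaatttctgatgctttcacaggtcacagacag
Olfr212: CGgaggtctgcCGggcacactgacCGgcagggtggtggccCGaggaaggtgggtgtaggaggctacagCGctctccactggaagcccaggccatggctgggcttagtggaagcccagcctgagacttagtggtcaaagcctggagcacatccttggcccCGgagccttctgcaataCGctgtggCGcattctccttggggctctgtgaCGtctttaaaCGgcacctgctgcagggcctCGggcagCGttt
The windows lie on the minus strand at chr17:62881318-62881567 (Efna5), chr15:79687873-79688122 (Josd1) and chr6:13677967-13678216 (Bmt2). On the plus strand they lie at chr16:38088751-38089000 (Gsk3b), chr4:137277385-137277634 (Wnt4), chr4:148160418-148160667 (Fbxo2), chr14:50424271-50424520 (Olfr739) and chr6:116506266-116506515 (Olfr212).

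The window of Wnt4 holds 44 CpGs, a number reached by 0.539% of the 32851 promoters in the RefSeq table, whose median is 6. Efna5 has 32, Josd1 31, Fbxo2 19, Bmt2 18 and Gsk3b 15. Olfr212 has 12, and Olfr739 has 0, as few as 7.87% of the table. Searched on both strands, the TCF/LEF core CTTTGAT and its variant CTTTGTT stand in none of the 8 windows, and they stand in 3.21% and 5.03% of all promoters in the table. The letters GGGCGG, a GC box, occur in Efna5, Wnt4, Fbxo2, Josd1 and Bmt2 (32.7% of the table). CCAAT occurs in Gsk3b, Bmt2 and Olfr739 (33.8%), and TATAAA in Gsk3b and Olfr739 (12.4%). The 8 were picked as examples after their values were seen. Over the whole set, CpG or motif content was not compared, because only 55.7% of the members and 48.8% of all rows have a sequence in the table, under the 80% needed, so that such a check is void.

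Being above the median on all 6 arrays was the commonest of the sign patterns that 6 arrays can give. Being at or below it on all 6 was next, with 1356 rows (5.18%). After these came the 1005 rows above the median on both number 2 arrays only (3.84%) and the 954 above it on all arrays but those (3.64%), so the arrays of 1 number tended to go together across antibodies. Rows above the median on 0, 1, 2, 3, 4 and 5 arrays numbered 1356, 3766, 5489, 5652, 4773 and 3332.

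**Figure D1:**
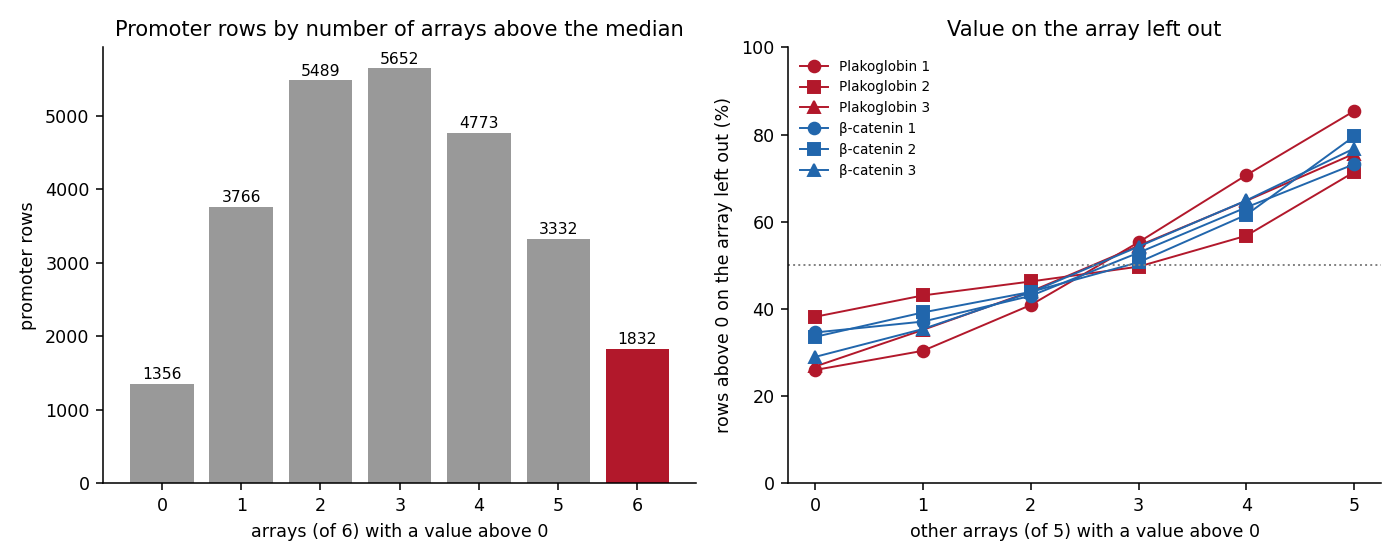
Left, number of promoter rows by the number of arrays on which the median-centred log2 ratio was above 0, with the 1832 members in red. Right, share of rows above 0 on an array left out, in percent, by the number of the other 5 arrays above 0; the dotted line marks 50%, the lines of all 6 arrays climb from left to right, and at 5 other arrays they lie between 71.4% and 85.4%.

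A value the rule did not use can be had by choosing rows on 5 arrays and reading them on the array left out. Rows above 0 on the other 5 arrays were above 0 in 85.4%, 71.4% and 75.6% of cases on Plakoglobin arrays 1 to 3. On β-catenin arrays 1 to 3 they were above 0 in 73.2%, 79.6% and 76.8% of cases. Over all rows the share is between 49.7% and 50.0% on each array. Where both arrays of a number were left out and rows were chosen on the other 4, the shares were 78.8%, 57.7% and 66.7% with Plakoglobin, against 67.6%, 64.3% and 67.8% with β-catenin. The median value on the array left out was between 0.06 (β-catenin array 1) and 0.46 (β-catenin array 2) with rows chosen on 5 arrays. With rows chosen on 4 it was between 0.05 and 0.22, so the rows lay above the median promoter by little. Rows are not replicates, so these shares carry no p-value.

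The members carry 1800 accessions. Of the members, 1358 have a gene name (1342 genes), and 474 are transcripts, mostly cDNA clones, that the name table did not hold. Members made up 8.06% of all named rows and 5.07% of unnamed ones. Accessions that stand at only 1 row gave 1744 members of 21919 rows (7.96%), and accessions with several rows, which are largely multicopy sequences, gave 88 of 4281 (2.06%). The accession with most rows, AK045941, had 11 members among 1262 rows. Among genes, 14 had more than 1 member row, with 3 each at Ppp2r5a and Ppp4r2, which encode regulatory subunits of protein phosphatases.

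The ratios of the members were mostly small. The mean over 6 arrays had a median of 0.31, a 1.24-fold ratio over the median promoter, and ran between 0.04 and 1.79. Over the members, the median value on arrays 1 to 3 was 0.22, 0.39 and 0.12 with Plakoglobin, against 0.10, 0.60 and 0.12 with β-catenin. β-catenin array 2 held the highest value of 53.0% of the members. β-catenin array 1 held the lowest value of 31.1%. A mean over 0.5 was found at 244 members (13.3%) and at 6.43% of all rows, which the rule favours, since no array of a member can pull its mean down. A mean over 1 was found at 9 members (0.491%) and at 146 of all rows (0.557%). Of the 100 rows with the highest mean 7 were members, which is near the 6.99% that members make up of all rows. In 594 members (32.4%) the highest array exceeded the sum of the other 5. By the median over probes in place of the mean, 1208 members (65.9%) were above the array's median on all 6 arrays.

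Among the 15 named members with the highest means, most owed their mean to 1 or 2 arrays. Pigt, a subunit of the enzyme that attaches GPI anchors, had 4.08, 1.27 and 0.07 on arrays 1 to 3 with Plakoglobin, against 3.60, 0.31 and 1.39 with β-catenin. It was high on both number 1 arrays, and its accession stands at 3 rows. Nt5c2, a cytosolic purine nucleotidase, had 0.50, 1.45 and 2.97 with Plakoglobin, against 0.25, 3.34 and 0.17 with β-catenin. Bmt2, a sensor of S-adenosylmethionine in the mTORC1 pathway, had 3.30, 1.85 and 2.42 with Plakoglobin, against 0.17, 0.15 and 0.25 with β-catenin, so that its 3 Plakoglobin arrays lay above its 3 β-catenin arrays. Plp2, a small membrane protein, had 0.42, 2.85 and 2.57 with Plakoglobin, against 0.09, 0.18 and 0.26 with β-catenin. Mag, the myelin-associated glycoprotein of glial cells, stood at 0.22, 0.73 and 4.44 with Plakoglobin, against 0.06, 0.38 and 0.14 with β-catenin, with Plakoglobin array 3 far above the others. Slc32a1, the vesicular GABA transporter of inhibitory neurons, stood at 0.27, 2.10 and 0.19 with Plakoglobin, against 3.95, 0.15 and 0.04 with β-catenin. Both are genes of nervous tissue, and each was high on 1 or 2 arrays only. Another 3 rows with such means had no gene name.

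The members with the highest lowest value were mostly of moderate size, although some of them also had high arrays. Cldn19, a claudin of tight junctions, had 0.64, 0.61 and 0.28 with Plakoglobin, against 0.24, 0.36 and 0.19 with β-catenin. The arrays of the antibodies overlapped, with β-catenin arrays 3 and 1 the lowest. Efna5, the Eph receptor ligand ephrin-A5 whose promoter is printed above, had 0.25, 0.93 and 0.22 with Plakoglobin, against 0.20, 0.72 and 0.19 with β-catenin, high on the number 2 arrays. Tomm70a, an import receptor of the mitochondrial outer membrane, had 0.67, 0.92 and 0.17 with Plakoglobin, against 0.33, 0.65 and 0.47 with β-catenin. Other named members of this kind were Uspx, Trerf1, Nckap5l, Emb, Gpr27, Jade2, Cbln3, Scara3, Eps8l2, which reached 1.97 on Plakoglobin array 2, and Nt5c2, described above for its mean. Uspx is a row of the Usp27x locus, described below, and not a separate locus. A further 8 rows with such values had no gene name, and a cDNA row of Usp27x was among them. The highest lowest value of all members was 0.36, at a cDNA row next to Bag5, a co-chaperone gene. It had 0.40, 0.48 and 2.49 with Plakoglobin, against 0.36, 0.88 and 1.36 with β-catenin. Only 222 members (12.1%) had a lowest value over 0.1 and 9 over 0.2.

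**Figure D2:**
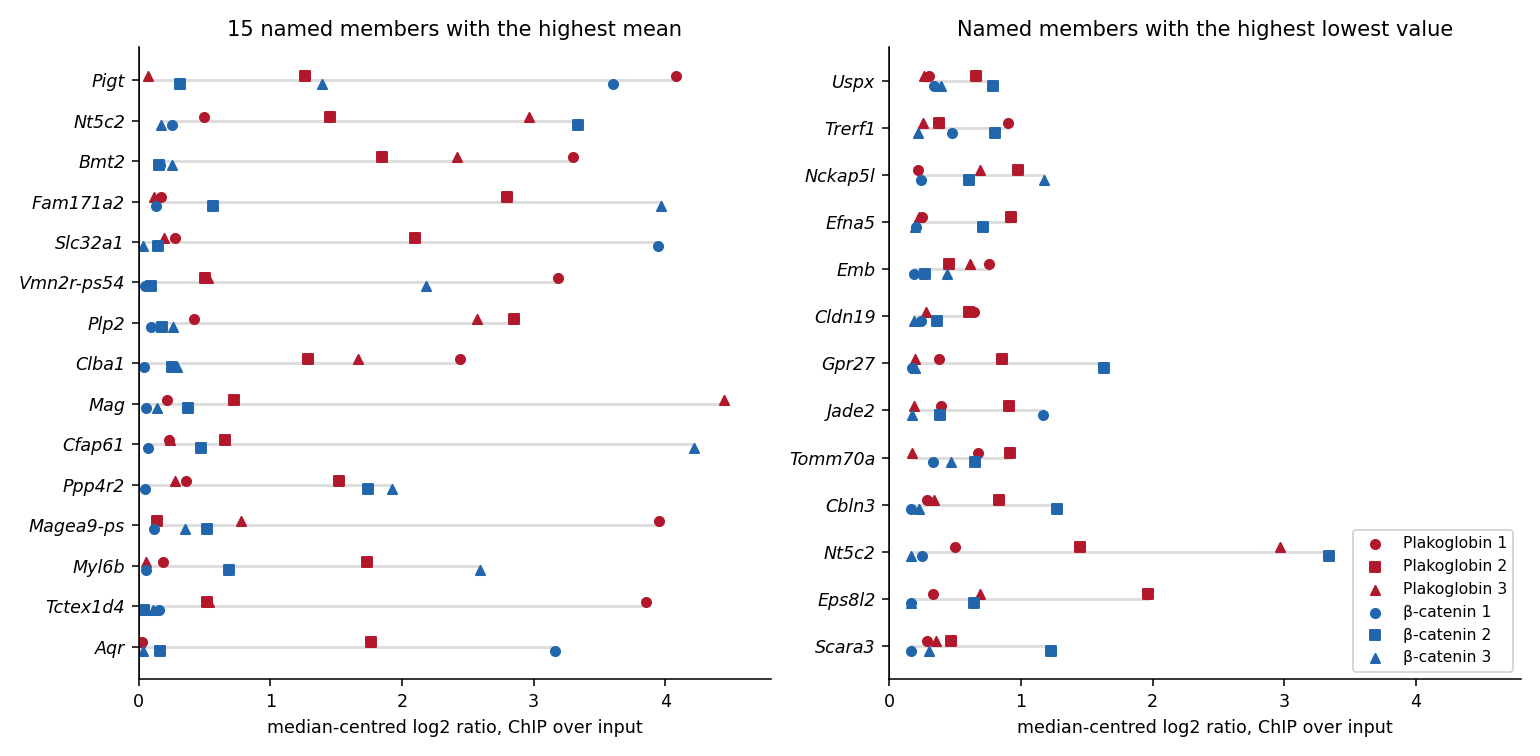
Median-centred log2 ratio of ChIP over input on each array (red, Plakoglobin; blue, β-catenin; circle, square and triangle, arrays 1, 2 and 3) for the 15 named members with the highest mean (left) and for 13 of the 15 with the highest lowest value (right). The first set reaches 4.44 on single arrays, and most values of the second lie below 1, with Nt5c2 reaching 3.34.

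The threshold at 0 divides rows that hardly differ. Just inside it, Tbc1d8, Ctnnbip1, Ski, Kcnh2 and the clone AK005436 had a lowest value of 0.001, which fell on β-catenin array 3 in each. Other members tied with them on other arrays. The lowest value of 0.001 fell on β-catenin array 1 in Ssr1 and Foxa1, and on Plakoglobin array 1 in Sox1 and Ube2o. The array shared by the rows named first therefore reflects which tied rows were named. Just outside the threshold, Serpinb3d, Rgs2, Fam20b, Mixl1 and AK033911 had a lowest value of 0. The gene of Plakoglobin itself, Jup, missed the set by -0.001 on β-catenin array 3, with 0.13, 0.32 and 1.89 on the Plakoglobin arrays and 0.06 and 0.65 on the other β-catenin arrays. Ctnnb1, the gene of β-catenin, missed it on Plakoglobin array 3 with -0.05. These 2 were looked up after the values were seen.

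Listed peaks were about as frequent among the members as elsewhere when all arrays are counted together. The authors' lists hold peaks up to a false discovery rate of 0.199, one list per array. A peak on at least 1 array stood at 651 members (35.5%) and at 34.5% of the other rows. Among accessions with 1 row the shares were 35.8% of members and 38.2% of other rows, and at a false discovery rate of at most 0.05 they were 21.9% of members and 26.2% of all other rows. Peaks on at least 2 arrays stood at 8.52% of members and 8.29% of other rows. A total of 10 members had peaks on 4 arrays and 0 on 5 or more, where 12 other rows had peaks on 5. By the number of arrays above 0, the share of single-row accessions with a peak was 4.35% at 0 arrays, reached 45.3% at 4 and was 43.8% at 5 and 35.8% at 6.

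The arrays differed in this. β-catenin array 2 had a peak at 6.66% of members and 1.72% of other rows, and members made up 22.5% of all rows with a peak there. The peaks of that array are mostly weak calls, with a median false discovery rate of 0.147 at members and 0.161 elsewhere, where on no other array either median was above 0.039. At a false discovery rate of at most 0.05, it had a peak at 5 members (0.273%) and at 34 other rows (0.14%). Plakoglobin arrays 1 and 2 had peaks at 12.8% and 12.5% of members and at 11.8% and 12.4% of other rows. Plakoglobin array 3 had them at 5.35% of members and 7.98% of other rows, and β-catenin array 3 at 6.28% and 8.95%. β-catenin array 1 had them at 2.95% of members and 2.20% of other rows. β-catenin array 2 is also the array with the highest member ratios. Within the set, peaks went with the mean and not with the lowest value. Of the 458 members with the highest means 330 had a peak (72.1%), and of the 458 with the lowest means 55 did. Ordered by the value on the lowest array instead, the shares were 34.9% of the top 458 and 36.7% of the bottom 458.

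**Figure D3:**
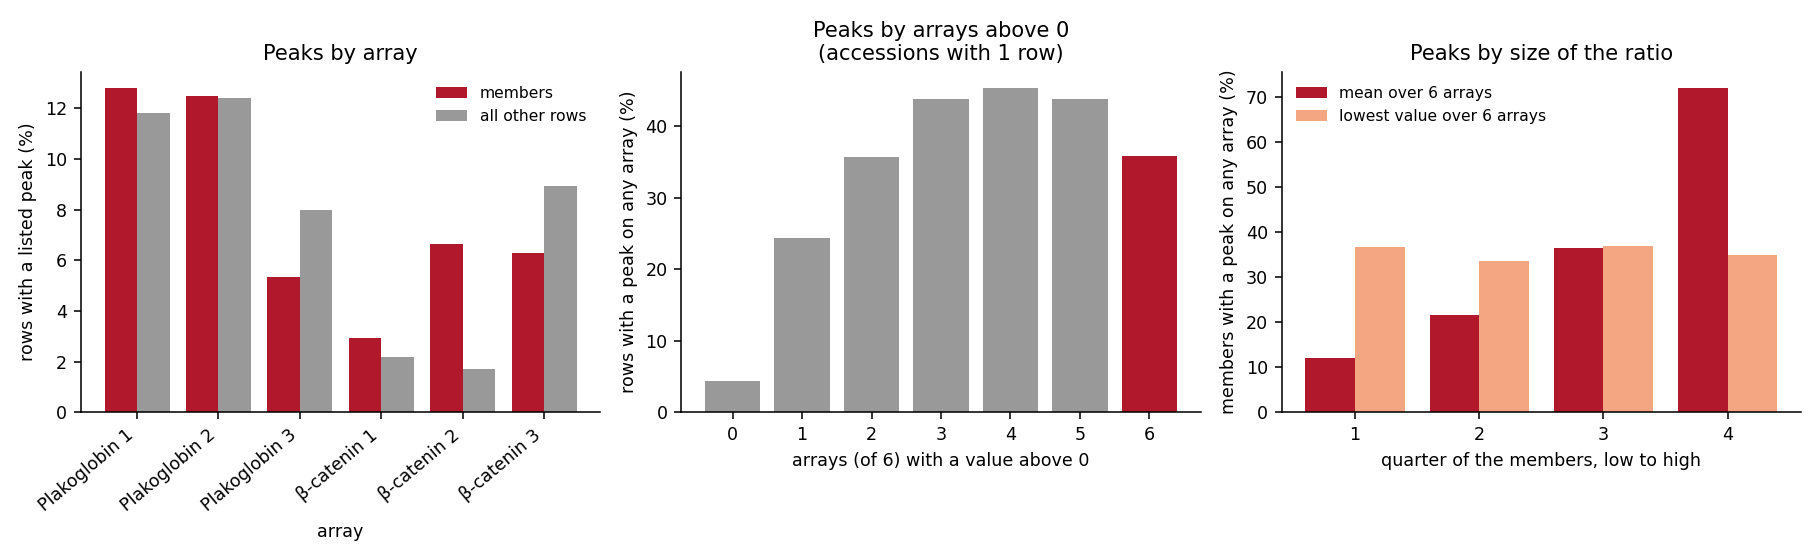
Share of promoter rows with a listed peak, in percent: by array for members (red) and all other rows (grey), by the number of arrays above 0 for accessions with 1 row, and among members in 4 equal groups by the mean (red) and by the lowest value (light). β-catenin array 2 stands at 6.66% of members and 1.72% of other rows, and the share is 72.1% in the group with the highest means.

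Members with peaks on 4 arrays came in part from the same peaks, since a peak is listed under every nearby start site. Josd1, a deubiquitinating enzyme (start site 80015410 on chromosome 15 as deposited), and Gtpbp1, a GTP-binding protein of RNA turnover (80018486), shared all of theirs. Josd1 had 0.15, 0.91 and 1.58 with Plakoglobin, against 0.07, 1.83 and 0.21 with β-catenin. Gtpbp1 had 1.62, 1.58 and 0.65 with Plakoglobin, against 0.15, 0.33 and 0.27 with β-catenin, so the neighbours were both high on Plakoglobin arrays 2 and 3 and differed on Plakoglobin array 1 and β-catenin array 2. H4c8, a histone H4 gene (22911173 on chromosome 13), had 0.35, 1.31 and 0.34 with Plakoglobin, against 0.07, 0.07 and 0.53 with β-catenin, with peaks on the 3 Plakoglobin arrays and β-catenin array 3. Usp27x, an X-linked deubiquitinase, is covered by 3 rows with start sites within 5664100 to 5664805 and the same 4 peaks. Its main row had 0.33, 0.07 and 0.76 with Plakoglobin, against 0.28, 1.30 and 0.13 with β-catenin.

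Housekeeping families held members at a share close to that of named rows, and tissue-restricted families held fewer. Members were 55 of 719 rows of 15 housekeeping families (7.65%), 28 of 1689 rows of 20 tissue-restricted families (1.66%), against 8.06% of named rows, from which all of these lists are drawn, and 6.99% of all rows. The tissue-restricted share is low in part because odorant and vomeronasal receptors fill most of its rows, and without them it was 22 of 558 (3.94%). Counted over accessions with 1 row, the shares were 7.51% for housekeeping families, 1.82% for tissue-restricted families, 8.31% for named rows and 7.96% for all rows. When those rows were also centred by themselves, the shares became 5.26%, 1.56% and 6.38%, so the housekeeping share lay above that of all rows or below it by the choice of rows, and it lay below that of named rows before this centring. With rows chosen on 5 arrays, the tissue-restricted share was between 2.19% and 3.02%, and that of all rows between 8.19% and 9.79%. It was over 1.5 times its value of 1.66% without any of the Plakoglobin arrays (2.66%, 2.72% and 2.61% without arrays 1, 2 and 3) and without β-catenin array 2 (3.02%). The lists were symbol patterns, and no test was made of these shares.

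Within the housekeeping class the families differed. Ubiquitin-conjugating enzymes, which pass ubiquitin to substrates, had 7 members in 32 rows (21.9%). Mitochondrial import proteins had 4 in 21 (19.0%), vesicle transport proteins 8 in 76 (10.5%), mitochondrial ribosomal proteins 7 in 67 (10.4%) and cytosolic ribosomal proteins 6 in 67 (8.96%). General transcription factors and Mediator had 2 in 66 (3.03%), and splicing factors 2 in 55 (3.64%). Proteasome subunits had 0 in 38 and RNA polymerase subunits 0 in 24. In all, 7 of 15 families were above the share of named rows, and 2 held no member. Of 21 rows of genes that serve as references in expression assays only Oaz1, a regulator of polyamine synthesis, was a member.

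Housekeeping members differed in how even they were over the arrays, and 22 of the 55 were over 1 on at least 1 array, as were 36.6% of all members. Rpl14, a protein of the large ribosomal subunit, had 0.16, 0.41 and 0.25 with Plakoglobin, against 0.11, 0.45 and 0.08 with β-catenin. Mrps16, of the mitochondrial small subunit, had 0.28, 0.26 and 0.12 with Plakoglobin, against 0.12, 0.69 and 0.13 with β-catenin. Ube2e1, a ubiquitin-conjugating enzyme, had 0.21, 0.39 and 0.14 with Plakoglobin, against 0.22, 0.64 and 0.11 with β-catenin. In these 3 every array was below 1, and β-catenin array 2 was the highest, as in 22 of the 55. Single arrays stood out in others. Mrpl32 had 3.59 on β-catenin array 3 and between 0.13 and 0.48 on the other arrays, and Ndufa1, a subunit of respiratory complex I, had 1.84 on Plakoglobin array 1 and between 0.12 and 0.30 on the others.

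**Figure D4:**
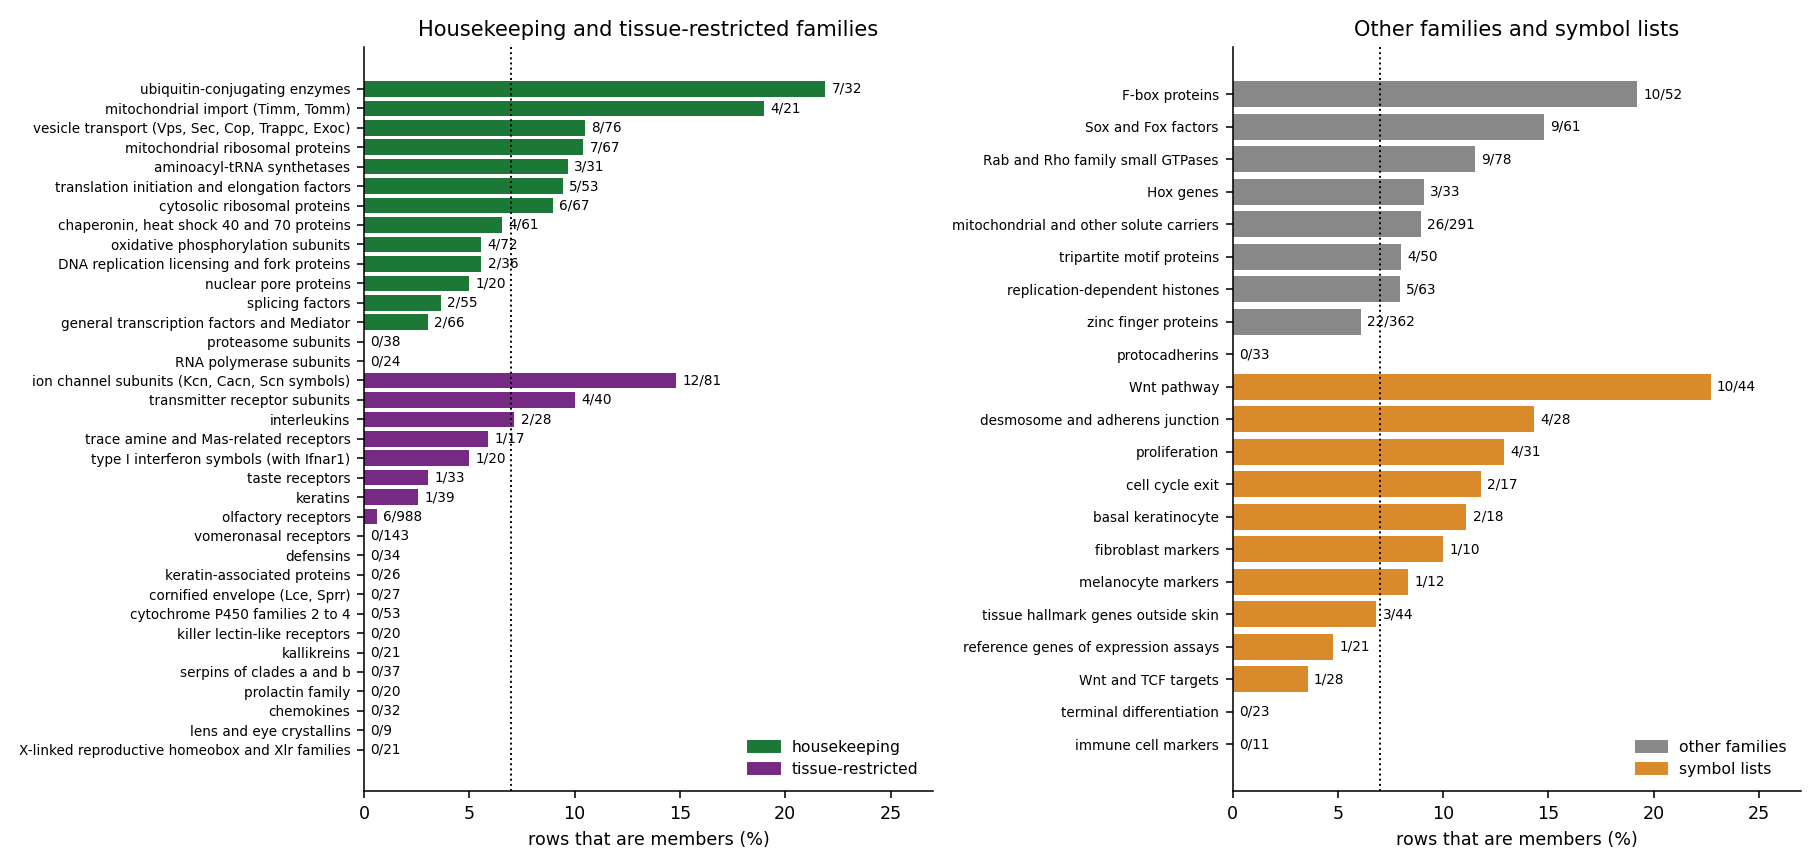
Share of promoter rows that are members, in percent, with members and rows at each bar, for housekeeping (green) and tissue-restricted (purple) families and for other families (grey) and symbol lists (orange); the dotted line is the 6.99% of all rows. Ion channel subunits and transmitter receptor subunits lie right of the line, and 12 tissue-restricted families hold no member.

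Of the 20 tissue-restricted families, 12 had no member and 2 were above the share of named rows. Odorant receptors had 6 members in 988 rows (0.607%), vomeronasal receptors 0 in 143, cytochrome P450 families 2 to 4 0 in 53, serpins of clades a and b 0 in 37, defensins 0 in 34 and chemokines 0 in 32. The symbol pattern for vomeronasal receptors left out the pseudogene row Vmn2r-ps54, which was a member with peaks on 4 arrays. It had 3.19, 0.50 and 0.53 with Plakoglobin, against 0.04, 0.09 and 2.19 with β-catenin. Families of the skin held few members as well, with 1 in 39 keratins (Krt9, the keratin of palm and sole), 0 in 27 cornified envelope genes and 0 in 26 keratin-associated proteins. Their ratios were not all low. The mean over 6 arrays had a median of 0.07, 0.04 and 0.27 in these families, against 0.09 for named rows. Symbols of potassium, calcium and sodium channel subunits, which are used mainly in nerve and muscle, gave 12 members in 81 rows (14.8%), and GABA, glutamate and acetylcholine receptor subunits gave 4 in 40 (10.0%). The 1 member under the type I interferon symbols, Ifnar1, is a receptor and not an interferon.

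Of the 12 channel members 9 were highest on β-catenin array 2, and 4 were over 1 on at least 1 array. Kcnh3, a potassium channel of forebrain neurons, had 0.27, 0.60 and 0.19 with Plakoglobin, against 0.14, 1.48 and 0.24 with β-catenin. Cacna1c, the pore of the L-type calcium channel of heart muscle, had 0.25, 0.47 and 0.02 with Plakoglobin, against 0.15, 0.70 and 0.19 with β-catenin. Gabra4, a subunit of the GABA-A receptor, had 0.26, 0.34 and 0.16 with Plakoglobin, against 0.07, 1.03 and 0.18 with β-catenin. The exceptions were Cacna1g and Cacng2, calcium channel subunits, highest on Plakoglobin array 2 with 1.20 and 1.04, and Kcnj14, a potassium channel, highest on Plakoglobin array 3 with 0.40. Cacna1c and Cacna1g were named after the values were seen.

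Odorant receptors were not low everywhere. They were above the median in 13.1%, 64.1% and 24.1% of 988 rows on arrays 1 to 3 with Plakoglobin, against 31.7%, 64.1% and 27.5% with β-catenin. They were thus above it more often than not on both number 2 arrays and below it on the other 4. The member Olfr739 had 0.19, 0.65 and 0.07 with Plakoglobin, against 0.12, 0.58 and 1.00 with β-catenin, and Olfr212 had 0.22, 0.22 and 0.29 with Plakoglobin, against 0.15, 0.05 and 0.38 with β-catenin. Kallikreins, with 0 members in 21 rows, were above the median in 81.0%, 61.9% and 100.0% of rows with Plakoglobin and in 61.9%, 9.52% and 90.5% with β-catenin, lowest on β-catenin array 2. Keratins were above it in 28.2% and 17.9% of rows on Plakoglobin array 2 and β-catenin array 2 and in 43.6% to 71.8% on the other arrays. Ubiquitin-conjugating enzymes were above it in 59.4% to 81.2% of rows on every array. Members of a family often lie in clusters on 1 chromosome, so the rows of a family are not independent.

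**Figure D5:**
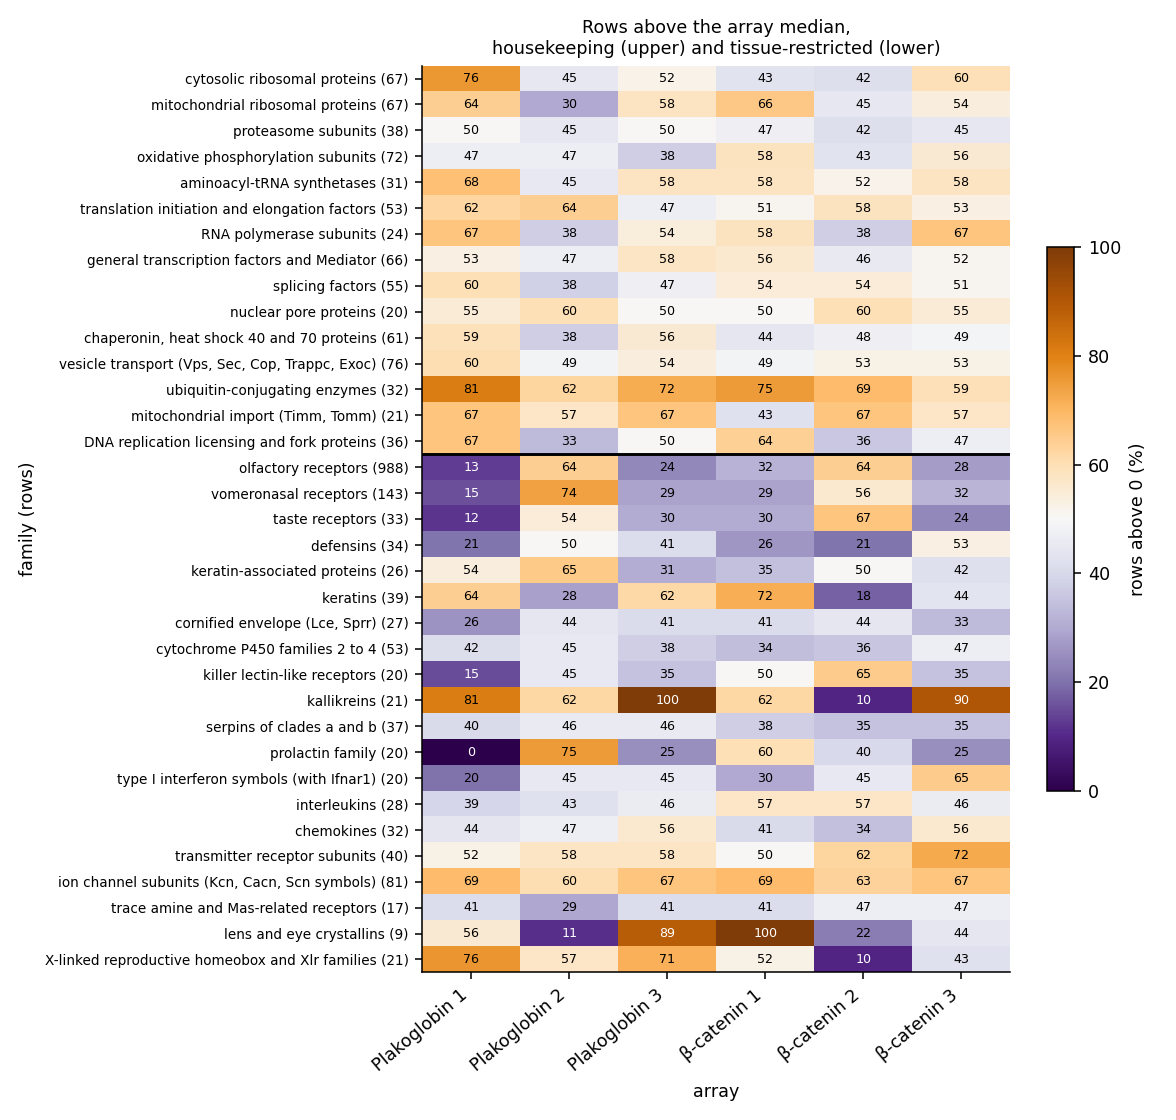
Share of promoter rows above 0, in percent, on each array for housekeeping families (above the line) and tissue-restricted families (below it), with the number of rows in brackets. Odorant receptors stand at 64.1% on both number 2 arrays and between 13.1% and 31.7% on the other 4, and kallikreins at 9.52% on β-catenin array 2.

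The list of Wnt pathway genes held members at a higher share than the 8.06% of named rows, with no test made of it. It had 10 members in 44 rows (22.7%), and another 15 of its rows were above the median on 5 arrays, where 12.7% of all rows were. The members were the ligands Wnt4 and Wnt11, the receptors Fzd2, Fzd4 and Lrp6, the kinase Gsk3b, the factor Tcf7l2, its co-repressor Tle1, the co-activator Ep300 and Ctnnbip1, which blocks the binding of β-catenin to TCF factors. Wnt4 had 0.21, 0.60 and 0.18 with Plakoglobin, against 0.10, 1.57 and 0.23 with β-catenin. Gsk3b had 0.39, 0.52 and 0.21 with Plakoglobin, against 0.15, 0.44 and 0.23 with β-catenin. Tcf7l2 had 0.14, 0.34 and 0.15 with Plakoglobin, against 0.05, 1.24 and 0.13 with β-catenin. Wnt4 and Tcf7l2 were highest on β-catenin array 2, with Plakoglobin array 2 next in both, and the values of Gsk3b overlapped between antibodies throughout. Of these 10 members 8 had no listed peak, Wnt11 had a peak on 1 array and Fzd2 on 2. Of 28 rows of Wnt and TCF target genes 6 were above the median on 5 arrays and 8 on 4. In this short list 1 row was a member (3.57%), that of Myc, with 0.23, 0.02 and 0.35 with Plakoglobin, against 0.07, 0.30 and 0.08 with β-catenin.

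Of the lists for the keratinocyte itself, terminal differentiation genes had 0 members in 23 rows. Desmosome and adherens junction genes had 4 in 28 (14.3%), basal keratinocyte genes 2 in 18, proliferation genes 4 in 31 (12.9%) and cell cycle exit genes 2 in 17. Among all named rows 8.06% were members. The desmosome and adherens junction list also had 3 rows (10.7%) at or below the median on all 6 arrays, against 3.66% of named rows, so it reached to both ends. Cdh1, which encodes E-cadherin, had 0.26, 2.43 and 0.20 with Plakoglobin, against 0.14, 0.68 and 0.21 with β-catenin. Pkp4, an armadillo protein of junctions, had 0.19, 0.30 and 1.29 with Plakoglobin, against 0.09, 1.02 and 0.08 with β-catenin. Cdh1 was high on Plakoglobin array 2, and Pkp4 on Plakoglobin array 3 and β-catenin array 2. Nectin1, an adhesion receptor, and Evpl, the cornified envelope protein envoplakin, were the others. As a cornified envelope protein, Evpl could also be counted with terminal differentiation, so the 0 members there hold for that list as drawn. Lamb3, a laminin chain of the epidermal basement membrane, had 0.17, 0.30 and 0.16 with Plakoglobin, against 0.13, 0.45 and 0.24 with β-catenin. The proliferation members Ccne2, Cdk2, E2f2 and E2f3 drive entry into S phase. Markers of other cells gave 1 member in 10 rows for fibroblasts (Col1a2), 1 in 12 for melanocytes (Kit) and 0 in 11 for immune cells, and 3 of 44 rows of genes typical of tissues outside skin were members (Amh, Gata1 and Syn1). As promoters are present in all cells, these counts say nothing about which cells were in the culture.

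Among other families, F-box proteins, which choose substrates of ubiquitin ligases, had 10 members in 52 rows (19.2%), and Sox and Fox transcription factors had 9 in 61 (14.8%). Solute carriers had 26 in 291 (8.93%), histone genes 5 in 63 (7.94%), Hox genes 3 in 33 (9.09%), zinc finger proteins 22 in 362 (6.08%) and protocadherins 0 in 33. Of 71 symbol roots with at least 20 rows, formed after the values were seen, Fgf stood highest with 7 members in 21 rows (33.3%), and 13 roots had none, among them Ddx (RNA helicases) with 0 in 32. The growth factor gene Fgf16 had 0.17, 1.51 and 0.18 with Plakoglobin, against 0.16, 1.10 and 0.23 with β-catenin, high on both number 2 arrays. Fgf8 had 0.90, 0.20 and 0.16 with Plakoglobin, against 0.09, 0.37 and 0.21 with β-catenin. The root was picked as the top of 71 ranked shares, so its share is not a result about that family.

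Members also lay next to each other. Of members with a row of adjacent identifier, 18.1% stood next to another member, against 9.82% of the other rows. There were 121 runs of 2 members, 17 of 3 and 3 of 4. They included Fbxo6, Fbxo44 and Fbxo2, the peptidylarginine deiminase genes Padi4, Padi3 and Padi1, and the homeobox genes Irx1, Irx2 and Irx4. Fbxo6 had 0.39, 0.75 and 0.10 with Plakoglobin, against 0.12, 0.99 and 0.19 with β-catenin. Fbxo2 had 0.10, 0.66 and 0.12 with Plakoglobin, against 0.06, 1.10 and 0.10 with β-catenin. Both were high on the number 2 arrays. Padi1 had 0.20, 0.18 and 0.06 with Plakoglobin, against 0.13, 0.79 and 0.06 with β-catenin, and Irx1 had 0.28, 0.42 and 0.07 with Plakoglobin, against 0.03, 1.09 and 0.18 with β-catenin. Some neighbours are rows of 1 gene or of start sites so close that they share probes or peaks, as at Usp27x and at Fgf3, whose old name int-2 marks a second row, and how much of the share this makes was not tested.

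The series was made to compare the 2 proteins, and that difference was not used by the rule, although the rule needs both to be above 0. The limma fit over all 26200 rows did not pair the arrays by number. In this fit, 0 of 1832 members and 0.0% of all rows passed a Benjamini-Hochberg threshold of 0.05, and the lowest adjusted p was 0.999926. Such p-values measure only the spread between these arrays, which may be technical. Also 0 members had an unadjusted p under 0.05 in either direction, where 0.569% of all rows were higher and 0.16% lower with Plakoglobin. The eBayes trend gives rows with a higher mean a larger modelled spread, and the median standard error of the difference was 0.34 for members and 0.28 for other rows. Without the trend, 11 members were higher and 3 lower at an unadjusted p under 0.05, and again 0 passed after adjustment. The share of all rows at that unadjusted level without the trend was not counted, so these 2 counts cannot be set against a background. Plakoglobin was higher in 837 members (45.7%) and in 52.1% of the other rows, and the median difference was -0.02 and 0.01.

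All 3 Plakoglobin arrays were above all 3 β-catenin arrays at 52 members (2.84%) and below them at 21 (1.15%), and over all rows the share was 2.57% in each direction. The members with the smallest p in this fit were Smpd2 and Crot, both higher with Plakoglobin. Smpd2, a neutral sphingomyelinase, had 1.29, 0.73 and 0.80 with Plakoglobin, against 0.00, 0.02 and 0.03 with β-catenin. Crot, a peroxisomal carnitine acyltransferase, had 0.68, 1.00 and 0.90 with Plakoglobin, against 0.07, 0.09 and 0.19 with β-catenin. The groups do not overlap at either. The difference at Smpd2 was 0.92 with a standard error of 0.40 (limma, unadjusted p = 0.0513 and adjusted p = 0.999926), and peaks were listed on its 3 Plakoglobin arrays. Next by p came Safb2, a nuclear matrix protein, and Phf10, a subunit of a chromatin remodelling complex. This order depends on the trend and is not an order by size. Bmt2, whose groups do not overlap either, had a larger difference of 2.33 with a standard error of 2.41 (limma, unadjusted p = 0.363). In the other direction the smallest p was that of Prox2, a homeobox gene, with 0.03, 0.00 and 0.02 with Plakoglobin, against 0.11, 0.70 and 0.41 with β-catenin (difference -0.39 with a standard error of 0.26, limma adjusted p = 0.999926). None of these passed, and a p that misses the threshold does not show that the proteins bind these promoters alike.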

How the data were processed

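The promoter tables, 1 per array, hold log2 ratios of ChIP over input, summarised by the authors over the probes of a sequence as mean, median and SD, per the file headers. How probe values were normalized, and the genome build, are not given in the sources used here. Of 26275 sequences, 75 had no value. The authors' peak lists, 1 per array and made without pooling, give a score of unstated scale and a false discovery rate (q-value), per the file headers, and were matched by accession. Other values, such as probe numbers and positions, were taken as deposited.

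Each array was centred on its median. Rows were named through a RefSeq table (GRCm38.p6) by accession (12527), symbol (1710) or synonym (1794), or kept the file's symbol (813), and 9356 stayed unnamed. The contrast was fitted in R 4.3.3 by limma 3.58.1 with an eBayes trend (two-sided, Benjamini-Hochberg over 26200 rows), after the script was tested on simulated data. The simulation gave every row the same spread and the changed rows a large change. It therefore does not show how small a difference the fit could detect here. Precision is limited by 3 arrays per antibody. Shares were taken to have moved where they left the exact 95% binomial interval. That interval counts rows as independent, which they are not, so it served only as a mark of size. Deviations of same-numbered arrays from their antibody's mean correlated at 0.203, 0.235 and 0.218 over rows, so the numbers may pair the arrays, which the labels do not state. The main contrast did not use this pairing. It entered as a block in an alternative fit, where the lowest adjusted p of a member was 0.89 (limma). Named rows are the 15 with the highest mean, the 15 with the highest lowest value, the 10 with most peaks, 5 on either side of the threshold, 5 per direction for the contrast and up to 4 per list. Of the 15 with the highest lowest value, 2 are not reported here. The members and the lists were chosen with earlier results of these data known. Other steps used Python 3.11.15 with numpy 2.4.6, pandas 2.3.3, matplotlib 3.10.9 and scipy 1.17.1.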

Additional observations from a re-analysis of the deposited data

How the results depend on the processing

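The number of members kept within 1.5 times of 1832 with the median over probes, quantile normalization, accessions with 1 row or each accession once, and it was 2146 to 2566 with an array left out. It was 11921 without centring, 506 with centring on the mean and 222 with a threshold of 0.1. The share of members with a peak was 21.9% at a false discovery rate of at most 0.05, 8.52% for peaks on at least 2 arrays and 29.5% to 38.0% with an array left out. The housekeeping share was 53.8% without centring, 5.26% with accessions of 1 row and 9.18% to 10.8% with an array left out. The tissue-restricted share was 22.3% without centring and 2.19% to 3.02% with an array left out. Beside these, members made up 45.5% of all rows without centring, 6.38% with accessions of 1 row and 8.19% to 9.79% with an array left out. Accessions with 1 row only gave 82.8% and 72.3% above 0 on Plakoglobin arrays 1 and 3 and 74.3% on β-catenin array 3 where these were left out. With both arrays of a number left out, the shares were 78.8%, 57.7% and 66.7% with Plakoglobin, against 67.6%, 64.3% and 67.8% with β-catenin. In settings that drop an array or count fewer rows the rule itself is looser or stricter, and for the other settings the cause was not tested. With the array number as a replicate block, 0 members passed between Plakoglobin and β-catenin, as in every other setting of that fit, arrays left out included (0 to 0), and the block changed no other call. What the unnamed rows and the missing genome build hide was not analysed here.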

Other observations

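Chromosomes were taken from the RefSeq table for named genes. Members made up 8.31% of all named single-row promoter rows. The highest shares by chromosome were 12.4% on chromosome 4, 11.1% on 14, 10.7% on 8 and 10.6% on X. The lowest were 6.09% on 2 and 0 of 8 on Y, and the other chromosomes lay between 6.46% and 10.4%. Chromosome 4 holds several of the runs described above, such as the Fbxo6 and Padi genes, and rows of a chromosome are not independent.

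Accessions with several rows were at or below the median on all 6 arrays in 12.4% of their rows, against 3.77% of single-row accessions. Since these repeated rows lie low on most arrays, they also move the median from which every other row is measured. Values over 1 on any array were found at 670 members (36.6%) and at 29.0% of the other rows, and in 417 of the 670 members they stood on the number 2 arrays only. The latter was not counted for the other rows. Plakoglobin array 2 was over 1 at 11.7% of members and 10.7% of all rows, the most rows of any array. β-catenin array 2 was over 1 at 15.7% of members and 3.25% of all rows.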
